A study of Mus musculus with 18 samples.

Results

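Imprinted genes that govern fetal growth were followed in lymphatic endothelial cells (LEC), which line lymphatic vessels, and blood vascular endothelial cells (BEC), which line blood vessels, of mouse embryos. The list names 10 genes, Igf2, H19, Dlk1, Meg3, Peg3, Plagl1, Mest, Cdkn1c, Grb10 and Nnat. A gene was taken where a row of the array's value table carried its symbol and no other, with the brightest row used. That rule found 9 of the 10 genes among 19938 genes in all, each through 1 row, and no row carried H19 alone, so H19 is not analysed here. The samples were total RNA on 18 arrays of the Affymetrix Mouse Gene 1.0 ST type, 3 for each of 6 groups: LEC and BEC of embryos at day 14.5 (E14.5), day 16.5 (E16.5) and day 18.5 (E18.5). Each array of a group came from an independent litter, and LEC and BEC of an age came from matching litters. The labels give no strain, genotype or treatment, and give the isolation method only by citation. Precision is set by the number of arrays. The values are log2 RMA levels, a background-corrected, normalized summary of a row's probes, on which a difference of 1 is a 2-fold difference. Arrays of this kind do not tell the maternal from the paternal copy of a gene, so all values are totals over both.

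An imprinted gene is transcribed mainly from the copy inherited from 1 parent, a choice set by DNA methylation laid down in the germ line. Paternally expressed members such as Igf2, a secreted growth factor, tend to promote fetal growth, whereas maternally expressed members such as Cdkn1c, an inhibitor of cyclin-dependent kinases, tend to restrain it. Many of these genes are high in fetal tissues and decline around birth. In the mouse, Plagl1 encodes the zinc finger protein ZAC1, which binds and regulates other imprinted genes.

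The promoters of Peg3, Meg3 and Dlk1 are shown because Meg3 and Dlk1, which lie side by side, moved together in these data, and because of these windows only that of Peg3 held the motif known for ZAC1, the protein that Plagl1 encodes. The windows run from 250 bases before to 50 bases after a gene's start and come from RefSeq on GRCm38.p6, which held 15 windows for 8 of the 9 measured genes. Capitals mark the ZAC1 motif GGGGCCCC and the cyclic AMP response element TGACGTCA, both searched on both strands (each is its own reverse complement, and they do not overlap here). The windows are chr7:6730370-6730669 on the minus strand for Peg3, chr12:109540746-109541045 on the plus strand for Meg3 and chr12:109452573-109452872 on the plus strand for Dlk1.
Peg3: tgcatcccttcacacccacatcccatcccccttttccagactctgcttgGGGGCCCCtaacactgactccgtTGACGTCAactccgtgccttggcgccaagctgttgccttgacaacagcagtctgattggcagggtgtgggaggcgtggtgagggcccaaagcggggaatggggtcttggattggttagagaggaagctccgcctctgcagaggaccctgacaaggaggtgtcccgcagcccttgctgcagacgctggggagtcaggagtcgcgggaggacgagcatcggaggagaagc
Meg3: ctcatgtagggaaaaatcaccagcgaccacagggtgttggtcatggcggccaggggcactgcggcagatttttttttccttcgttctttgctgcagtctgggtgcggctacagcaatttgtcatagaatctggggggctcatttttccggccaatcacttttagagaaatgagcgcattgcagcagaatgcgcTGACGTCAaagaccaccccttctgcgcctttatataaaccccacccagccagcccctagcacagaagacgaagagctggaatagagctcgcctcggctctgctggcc
Dlk1: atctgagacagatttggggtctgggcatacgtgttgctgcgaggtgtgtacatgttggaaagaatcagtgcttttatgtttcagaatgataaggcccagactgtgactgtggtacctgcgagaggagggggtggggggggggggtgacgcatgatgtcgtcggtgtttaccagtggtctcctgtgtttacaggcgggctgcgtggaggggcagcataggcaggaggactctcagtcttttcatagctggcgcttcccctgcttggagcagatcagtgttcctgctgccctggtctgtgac
The ZAC1 motif stood in 1 of the 15 windows, that of Peg3, where it began at position -201 from the start, and in 1.08% of all 32851 windows. The response element, chosen after the windows were read, stood in the same Peg3 window at position -178 and in the Meg3 window above at position -57, and in 1.79% of all windows. The Dlk1 window held neither. A match is a string of letters and says nothing of binding.

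The labelled cell types were checked by their markers. All 8 measured lymphatic markers were higher in LEC over the 3 ages, Prox1, the transcription factor of lymphatic fate, by 4.20 ± 0.09 log2 (SE, limma, adjusted p = 2.7e-17). Of 9 blood endothelial markers 8 were lower in LEC, and Cldn5, a tight junction protein, was higher by 0.21 ± 0.08 (adjusted p = 0.037). Of 6 markers of endothelium in general (pan-endothelial), 4 were lower in LEC and 0 higher, with a median of -0.72. Among them were Tek (-1.19 ± 0.06), Pecam1 (-1.07 ± 0.06) and Cdh5 (-1.05 ± 0.05). With age 5 of these 6 rose in LEC and 4 in BEC. The lymphatic markers differed least at E14.5. Their summed level was 13.88 to 13.96, 14.26 to 14.30 and 14.33 to 14.58 in LEC at the 3 ages, against 11.77 to 11.98, 11.29 to 11.30 and 10.77 to 10.96 in BEC, and their median difference was 2.38, 4.52 and 5.38 in the same order of ages. With age 7 of the 8 fell in BEC (median -1.81, with Prox1 at -1.94 ± 0.15 and Mmrn1, a secreted matrix protein, at -2.70 ± 0.17), and 5 rose in LEC. Of the blood endothelial markers, 6 rose and 2 fell with age in LEC, and 2 rose in BEC. Arrays of a group correlated at 0.986 to 0.996 over all genes. The interquartile range per array ran from 3.18 to 3.64 over the 18 arrays. All 9 measured members lay above 4.66, the 95th percentile of olfactory and vomeronasal receptor genes, on every array, with the lowest value at 4.91 for Nnat.

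Markers of other cell types also differed between the groups. The summed level of 10 mural genes, which mark the pericytes and smooth muscle cells of vessel walls, was 9.14 to 9.27 in LEC and 9.33 to 9.45 in BEC at E14.5 (log2 of the summed linear values). It was 9.23 to 9.33 in LEC and 10.29 to 10.51 in BEC at E16.5, and 9.03 to 9.56 in LEC and 11.75 to 12.07 in BEC at E18.5. With age 3 mural genes rose and 3 fell in LEC, whereas all 10 rose in BEC, Rgs5, a pericyte regulator of G protein signalling, by 4.19 ± 0.22. The muscle filament gene Des lay below the 4.66 bound on all arrays of LEC and of BEC E14.5, and Rgs5 on all arrays of LEC E14.5. The summed level of 12 fibroblast and mesenchyme genes was 10.10 to 10.33 in LEC and 10.08 to 10.24 in BEC at E14.5, 10.26 to 10.57 in LEC and 10.60 to 10.90 in BEC at E16.5, and 10.26 to 10.94 in LEC and 10.76 to 10.85 in BEC at E18.5. Of these, Tcf21 lay below the bound on all arrays of every group except BEC E18.5 and Dpt in every group except LEC E16.5. That of 9 macrophage genes was 10.70 to 10.78 in LEC and 8.82 to 9.04 in BEC at E14.5, 10.97 to 11.83 in LEC and 8.41 to 8.69 in BEC at E16.5, and 11.90 to 12.47 in LEC and 8.69 to 9.12 in BEC at E18.5. All 9 macrophage genes and all 7 mast cell genes were higher in LEC over the 3 ages, and in BEC the macrophage genes C1qb (E14.5 and E16.5), Adgre1 (E16.5 and E18.5), Cd14 (E16.5) and Fcgr3 (E18.5) lay below the bound on all arrays of those groups. The summed level of 8 keratinocyte and epithelial genes was 10.58 to 11.34 in LEC and 9.15 to 9.71 in BEC at E18.5, against 8.68 to 8.85 in LEC and 8.18 to 8.46 in BEC at E14.5. The summed level of 5 erythroid genes was 6.86 to 7.003 in LEC and 7.76 to 8.32 in BEC at E18.5, against 9.25 to 9.62 in LEC and 10.11 to 10.74 in BEC at E14.5. The embryonic globin gene Hbb-y lay below the bound on all E18.5 arrays. In such samples, fewer cells of a type and less RNA per cell cannot be told apart.

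**Figure D1:**
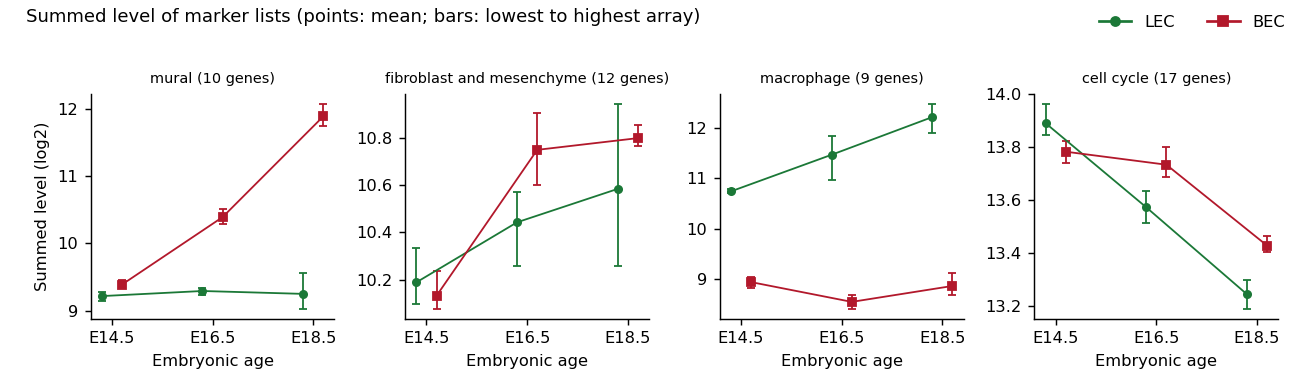
Summed level (log2 of the summed linear values) of 4 gene lists against embryonic age, with LEC as green circles and BEC as red squares; points are means of 3 arrays and bars run from the lowest to the highest array. The mural sum of BEC reached 11.75 to 12.07 at E18.5, against 9.03 to 9.56 in LEC, whereas the macrophage sum was higher in LEC at every age.

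The first question was how the members differ between lymphatic and blood endothelium. Over the 3 ages, Igf2 and Nnat were higher in LEC, and Dlk1, Meg3, Peg3, Plagl1, Mest, Cdkn1c and Grb10 were lower. The differences ran from a 4.09-fold lower level of Plagl1 to a 2.98-fold higher level of Nnat. The test was limma on group means with Benjamini-Hochberg adjustment over all 19938 genes of a comparison, and an adjusted p below 0.05 made a call. Of the 9 genes 2 were called higher, where 18.2% of all genes were, and 7 were called lower, where 19% of all genes were. The median difference of the 9 genes was -1.01 and that of all genes -0.02. All 10 mural genes were also lower in LEC, with a median of -1.03, and so were 4 of 6 pan-endothelial genes (median of the 6 -0.72). The part of either in the 7 lower members was not tested. At E14.5, 1 member was called higher (8.6% of all genes) and 6 lower (7.94% of all genes). At E16.5 the counts were 2 higher (13% of all genes) and 7 lower (12.2%), and at E18.5 again 2 higher (14.6% of all genes) and 7 lower (15.9%).

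**Figure D2:**
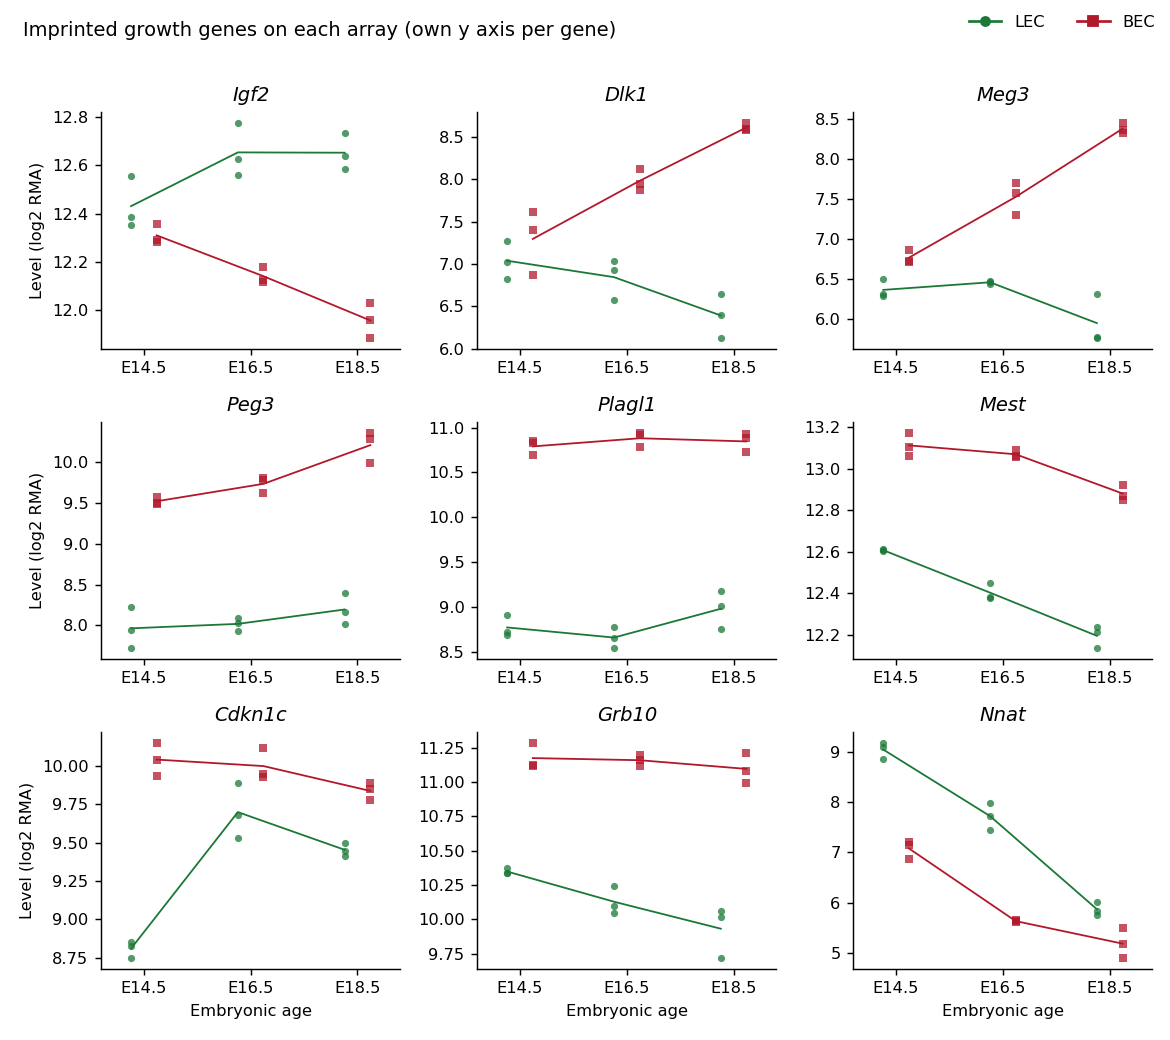
Level of the 9 measured genes on each of the 18 arrays (log2 RMA, own axis per gene) against embryonic age, with LEC as green circles and BEC as red squares; lines join group means. Plagl1, Peg3, Grb10, Mest, Meg3 and Cdkn1c arrays of LEC lay below those of BEC at each age, and those of Nnat above.

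Igf2 encodes the main fetal growth factor of the insulin family. At E14.5 Igf2 levels were 12.35, 12.39 and 12.56 in LEC, against 12.36, 12.28 and 12.29 in BEC. At E16.5 Igf2 stood at 12.63, 12.56 and 12.78 on the LEC arrays, against 12.18, 12.12 and 12.13 on the BEC arrays. At E18.5 the Igf2 arrays gave 12.59, 12.64 and 12.73 in LEC, against 11.89, 12.03 and 11.96 in BEC. LEC and BEC overlapped at E14.5, and at both later ages every LEC array lay above every BEC array. LEC minus BEC came to 0.12 ± 0.09 (SE, adjusted p = 0.5) at E14.5, to 0.51 ± 0.09 (adjusted p = 0.00026) at the middle age and to 0.69 ± 0.09 (adjusted p = 7.8e-06) by E18.5. Over the 3 ages Igf2 was 1.36-fold higher in LEC (0.44 ± 0.05, adjusted p = 1.3e-06). Macrophage and mast cell genes were higher in LEC as well, and their part in the Igf2 difference was not tested. In the order of group means, LEC E16.5 and LEC E18.5 overlapped at the top and LEC E14.5 overlapped BEC E14.5, whereas the BEC groups did not overlap and fell with age.

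Dlk1 encodes a transmembrane protein with EGF-like repeats that holds back the differentiation of fat cells and is expressed from the paternal copy. At E14.5 Dlk1 levels were 7.27, 6.82 and 7.02 in LEC, against 6.87, 7.61 and 7.40 in BEC. At E16.5 Dlk1 stood at 6.93, 6.57 and 7.03 on the LEC arrays, against 8.13, 7.95 and 7.87 on the BEC arrays. At E18.5 the Dlk1 arrays gave 6.12, 6.65 and 6.40 in LEC, against 8.59, 8.66 and 8.58 in BEC. The cell types overlapped at E14.5 and moved apart afterwards. LEC minus BEC came to -0.26 ± 0.18 (adjusted p = 0.43) at E14.5, to -1.14 ± 0.18 (adjusted p = 4.8e-05) at the middle age and to -2.22 ± 0.18 (adjusted p = 7.3e-09) by E18.5. Over the 3 ages Dlk1 was 2.31-fold lower in LEC (-1.21 ± 0.10, adjusted p = 8.3e-09), and -0.70 without the E18.5 arrays.

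Meg3, a long noncoding RNA of the maternal copy that neighbours Dlk1, followed a similar course. At E14.5 Meg3 levels were 6.50, 6.31 and 6.29 in LEC, against 6.72, 6.73 and 6.86 in BEC. At E16.5 Meg3 stood at 6.43, 6.48 and 6.47 on the LEC arrays, against 7.70, 7.58 and 7.30 on the BEC arrays. At E18.5 the Meg3 arrays gave 5.76, 6.31 and 5.78 in LEC, against 8.36, 8.45 and 8.33 in BEC. Every LEC array lay below every BEC array of its age. LEC minus BEC came to -0.40 ± 0.13 (adjusted p = 0.046) at E14.5, to -1.07 ± 0.13 (adjusted p = 3.7e-06) at the middle age and to -2.43 ± 0.13 (adjusted p = 5.3e-11) by E18.5. The call at E14.5 was lost with arrays shifted to a common median (adjusted p = 0.05), with replicate number as a block (0.053) and without LEC E14.5 replicate 2 or 3 (0.14 and 0.15) or BEC E14.5 replicate 1, 2 or 3 (0.078, 0.087 and 0.16). It was also lost without any single array of LEC E16.5 or BEC E18.5, or without BEC E16.5 replicate 2 (adjusted p = 0.051 to 0.057). Over the 3 ages Meg3 was 2.46-fold lower in LEC (-1.30 ± 0.08, adjusted p = 4.5e-11), and -0.73 without the E18.5 arrays. Beside the BEC levels of Dlk1 and Meg3 stand the mural sums of 9.33 to 9.45, 10.29 to 10.51 and 11.75 to 12.07 at the 3 ages, whose part in these differences was not tested.

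The 2 zinc finger genes of the list, both paternally expressed, showed large differences at every age. At E14.5 Plagl1 levels were 8.91, 8.72 and 8.69 in LEC, against 10.70, 10.82 and 10.85 in BEC. At E16.5 Plagl1 stood at 8.54, 8.78 and 8.66 on the LEC arrays, against 10.92, 10.78 and 10.94 on the BEC arrays. At E18.5 the Plagl1 arrays gave 9.02, 9.18 and 8.75 in LEC, against 10.93, 10.72 and 10.88 in BEC. The lowest BEC array thus exceeded the highest LEC array whatever the age, and the 3 ages overlapped within each cell type. Plagl1 was 4.09-fold lower in LEC (-2.03 ± 0.07, adjusted p = 7.1e-15), and its difference at the single ages lay between -2.22 ± 0.11 (E16.5) and -1.86 ± 0.11 (E18.5). Peg3, whose promoter with the ZAC1 motif is shown above, ranged at E14.5 over 7.72 to 8.22 in LEC and 9.49 to 9.58 in BEC, at E16.5 over 7.93 to 8.09 (LEC) and 9.62 to 9.80 (BEC), and by E18.5 over 8.02 to 8.39 in LEC and 9.99 to 10.36 in BEC. It was 3.40-fold lower in LEC (-1.77 ± 0.08, adjusted p = 3.6e-13). At E14.5 Plagl1 and Peg3 differed by -2.02 ± 0.11 and -1.56 ± 0.13. At that age the mural sum was 9.14 to 9.27 in LEC and 9.33 to 9.45 in BEC, with 5 of the 10 mural genes lower in LEC (median -0.43, among them Abcc9 at -0.94 ± 0.20 and Acta2 at -0.79 ± 0.25) and Pdgfrb higher by 1.14 ± 0.13. The part of mural cells in these differences was not tested.

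Cdkn1c and Grb10 are the growth-restraining members, Grb10 encoding an adaptor that binds insulin and IGF receptors. At E14.5 Cdkn1c levels were 8.75, 8.85 and 8.83 in LEC, against 10.04, 9.94 and 10.15 in BEC. At E16.5 Cdkn1c stood at 9.68, 9.53 and 9.89 on the LEC arrays, against 10.12, 9.93 and 9.95 on the BEC arrays. At E18.5 the Cdkn1c arrays gave 9.41, 9.45 and 9.4997 in LEC, against 9.77, 9.85 and 9.89 in BEC. LEC arrays lay below BEC arrays of the same age throughout, by the widest margin at E14.5. LEC minus BEC came to -1.23 ± 0.10 (adjusted p = 2.7e-08) at E14.5, to -0.30 ± 0.10 (adjusted p = 0.037) at the middle age and to -0.38 ± 0.10 (adjusted p = 0.0071) by E18.5. The E16.5 call was lost in the fit of the compared groups only (adjusted p = 0.1), with replicate number as a block (0.065) and without LEC E16.5 replicate 1 or 2 (0.099 and 0.19) or BEC E16.5 replicate 1 or 3 (0.16 and 0.057). The E18.5 call was lost with array weights (adjusted p = 0.05) and with the compared groups only (0.08). Over the 3 ages Cdkn1c was 1.56-fold lower in LEC (-0.64 ± 0.06, adjusted p = 3.1e-08).

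Grb10 ranged at E14.5 over 10.34 to 10.37 in LEC and 11.11 to 11.29 in BEC, at E16.5 over 10.05 to 10.24 (LEC) and 11.12 to 11.20 (BEC), and by E18.5 over 9.72 to 10.06 in LEC and 10.997 to 11.21 in BEC. It was 2.01-fold lower in LEC over the 3 ages (-1.01 ± 0.06, adjusted p = 4.5e-11) and called at each age. Mest, a paternally expressed gene for a protein of the hydrolase family, ranged at E14.5 over 12.60 to 12.61 in LEC and 13.06 to 13.17 in BEC, at E16.5 over 12.38 to 12.45 (LEC) and 13.06 to 13.09 (BEC), and by E18.5 over 12.14 to 12.24 in LEC and 12.85 to 12.92 in BEC. It was lower in LEC by 0.62 ± 0.05 (-0.62, adjusted p = 1.4e-09), with every LEC array below every BEC array of its age.

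Nnat, a paternally expressed gene for a small membrane protein of the endoplasmic reticulum, was the member most raised in LEC. At E14.5 Nnat levels were 9.17, 8.85 and 9.10 in LEC, against 7.21, 6.87 and 7.15 in BEC. At E16.5 Nnat stood at 7.45, 7.98 and 7.73 on the LEC arrays, against 5.66, 5.62 and 5.63 on the BEC arrays. At E18.5 the Nnat arrays gave 6.02, 5.84 and 5.76 in LEC, against 5.18, 5.49 and 4.91 in BEC. No LEC array reached down to the BEC arrays of its age, and no neighbouring groups overlapped in the order of the 6 means, which ran LEC E14.5, LEC E16.5, BEC E14.5, LEC E18.5, BEC E16.5 and BEC E18.5. LEC minus BEC came to 1.96 ± 0.15 (adjusted p = 1.1e-08) at E14.5, to 2.08 ± 0.15 (adjusted p = 2.4e-09) at the middle age and to 0.68 ± 0.15 (adjusted p = 0.0018) by E18.5, and 2.98-fold over the 3 ages (1.58 ± 0.09, adjusted p = 1.7e-11). While these LEC levels fell with age, the macrophage sum in LEC was 11.90 to 12.47 at E18.5, against 10.70 to 10.78 at E14.5. The erythroid sum was lower at E18.5 than at E14.5 in both LEC and BEC, and 2 of the 5 erythroid genes were called lower at E18.5 in each. These were Hbb-y in both, Alas2 in LEC and Slc4a1 in BEC. The median change of the 5 was -0.30 in LEC and -0.23 in BEC. The part of macrophages or erythroid cells in the Nnat values was not tested.

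**Figure D3:**
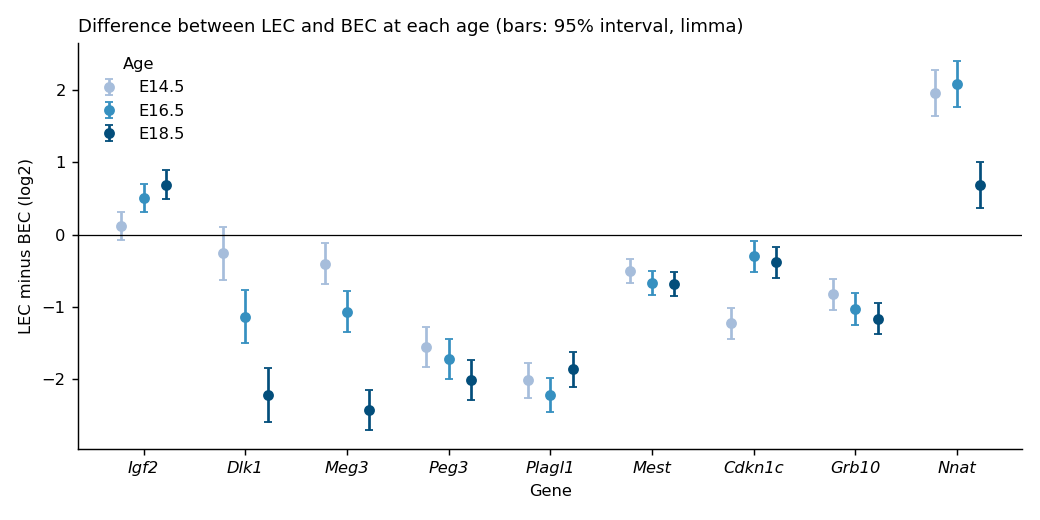
LEC minus BEC (log2) of each gene at the 3 ages, light to dark with age, with 95% intervals from limma; the line marks no difference. Plagl1 stayed between -2.22 and -1.86, Dlk1 and Meg3 widened to -2.22 and -2.43 at E18.5, and Nnat narrowed to 0.68 there. The BEC arrays of Nnat at E18.5 lay at 4.91 to 5.49, near the 4.66 bound.

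The next question was how the members change between E14.5 and E18.5, and whether LEC and BEC change alike. In LEC, Cdkn1c rose with age and Dlk1, Meg3, Mest, Grb10 and Nnat fell. In BEC, Dlk1, Meg3 and Peg3 rose and Igf2, Mest and Nnat fell. Mest and Nnat were thus called lower at the later age in both cell types, whereas Dlk1 and Meg3 were called in opposite directions. In LEC the counts were 1 member higher at E18.5 (19.7% of all genes) and 5 lower (21.2% of all genes). In BEC they were 3 higher (13.3% of all genes) and 3 lower (17.3%). The median change of the 9 genes was -0.41 in LEC and -0.08 in BEC, and that of all genes 0.04 in each.

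Nnat had the widest fall in both cell types. It fell 8.98-fold in LEC (-3.17 ± 0.15, adjusted p = 3.5e-11) and 3.70-fold in BEC (-1.89 ± 0.15, adjusted p = 3.5e-08), where the E18.5 arrays lay near the 4.66 bound, at 4.91 to 5.49. The fall came in both steps, at -1.32 ± 0.15 and -1.85 ± 0.15 in LEC and at -1.44 ± 0.15 and -0.45 ± 0.15 in BEC (E16.5 minus E14.5, then E18.5 minus E16.5). The later BEC step (adjusted p = 0.032) was lost with the compared groups only (0.058) and without any of 5 single arrays, BEC E16.5 replicates 1, 2 and 3 (0.074, 0.071 and 0.064) and BEC E18.5 replicates 1 and 3 (0.075 and 0.15). Mest fell by 0.41 ± 0.08 in LEC (adjusted p = 0.00037) and by 0.23 ± 0.08 in BEC (adjusted p = 0.035). The BEC call for Mest was lost with the compared groups only (adjusted p = 0.13) and without BEC E14.5 replicate 2 or 3 (0.075 and 0.13) or BEC E18.5 replicate 1 or 2 (0.075 and 0.079).

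Dlk1 fell 1.57-fold in LEC (-0.65 ± 0.18, adjusted p = 0.0061) and rose 2.49-fold in BEC (1.32 ± 0.18, adjusted p = 1.2e-05). Meg3 fell 1.33-fold in LEC (-0.42 ± 0.13, adjusted p = 0.018), where its E18.5 and E14.5 arrays overlapped, and rose 3.05-fold in BEC (1.61 ± 0.13, adjusted p = 4.9e-08). The LEC call for Meg3 was lost with the compared groups only (adjusted p = 0.072) and without LEC E14.5 replicate 1 (0.085) or LEC E18.5 replicate 1 or 3 (0.083 and 0.086). In LEC the fall of Meg3 was called in the later step (-0.51 ± 0.13, adjusted p = 0.0065), and neither step was called for Dlk1 (-0.19 ± 0.18, then -0.45 ± 0.18). The later step of Dlk1 (adjusted p = 0.054) passed with the filter on dim genes (0.044), with a trended robust variance (0.031) and without LEC E16.5 replicate 2 (0.026), LEC E18.5 replicate 2 (0.027) or BEC E14.5 replicate 1 or 2 (0.028 and 0.043). Both genes rose in each step in BEC, Dlk1 by 0.69 ± 0.18 and 0.63 ± 0.18 and Meg3 by 0.76 ± 0.13 and 0.85 ± 0.13. The earlier step of Dlk1 (adjusted p = 0.019) was lost without BEC E14.5 replicate 1 (0.1) or BEC E16.5 replicate 1 or 2 (0.071 and 0.058). In LEC, where both genes fell, 3 mural genes rose and 3 fell, with a median over the list of 0.33, among them Pdgfrb, a pericyte receptor, at -1.51 ± 0.13 and the smooth muscle actin gene Acta2 at 1.55 ± 0.25. In BEC, where both rose, all 10 mural genes rose with a median of 1.58, and of 12 fibroblast and mesenchyme genes 6 rose and 1 fell. The part of such cells in the change was not tested.

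The change of Peg3 was 0.23 ± 0.13 in LEC (adjusted p = 0.17, or 0.046 without LEC E14.5 replicate 1). In BEC Peg3 rose 1.61-fold (0.69 ± 0.13, adjusted p = 0.00047), beside the same mural values, and was called in the later step (0.48 ± 0.13, adjusted p = 0.011, or 0.052 without BEC E16.5 replicate 2). For Igf2 in LEC, E18.5 minus E14.5 was 0.22 ± 0.09, which was not called (adjusted p = 0.065) but passed with quantile normalization (0.026), the filter on dim genes (0.043), a trended robust variance (0.01) and without LEC E14.5 replicate 3 (0.038). In BEC Igf2 fell 1.28-fold (-0.35 ± 0.09, adjusted p = 0.0065). The falls of Igf2 and Nnat in BEC stand beside that of 7 of 8 lymphatic markers there (median -1.81), whose part was not tested.

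Cdkn1c rose 1.56-fold in LEC (0.64 ± 0.10, adjusted p = 4.7e-05), with 0.89 ± 0.10 in the earlier step (adjusted p = 1.2e-05) and -0.25 ± 0.10 in the later one (adjusted p = 0.071, or 0.03 with a trended robust variance and 0.029 without LEC E16.5 replicate 2). In BEC its change was -0.20 ± 0.10 (adjusted p = 0.15). Beside this rise of a cell cycle inhibitor, 16 of 17 cell cycle genes fell in LEC (21.2% of all genes), with a median of -0.91. In BEC 11 of 17 fell (17.3% of all genes), with a median of -0.46. In the earlier LEC step 9 of the 17 fell (5.72% of all genes), with a median of -0.37. In the later LEC step 12 fell (18.5% of all genes) and 1 rose, with a median of -0.59. A link between Cdkn1c and these genes was not tested. The replication helicase gene Mcm5 fell by 1.55 ± 0.10 in LEC and by 1.10 ± 0.10 in BEC. Grb10 fell 1.33-fold in LEC (-0.42 ± 0.10, adjusted p = 0.0031), and its change in BEC was -0.08 ± 0.10 (adjusted p = 0.62). Plagl1 had no call over the whole span in either cell type (LEC 0.21 ± 0.11, adjusted p = 0.16, or 0.033 without LEC E18.5 replicate 3; BEC 0.06 ± 0.11, adjusted p = 0.77). Its later step in LEC was called (0.32 ± 0.11, adjusted p = 0.037), but not with array weights (0.06), with the compared groups only (0.14) or without LEC E16.5 replicate 1 or 3 (0.14 and 0.081) or LEC E18.5 replicate 1 or 2 (0.079 and 0.16).

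Called in either direction by step were 2 members in LEC between E14.5 and E16.5 (13.8% of all genes) and 3 in LEC between E16.5 and E18.5 (34.4% of all genes). In BEC they were 3 in the earlier step (9.76% of all genes) and 4 in the later step (32.3% of all genes). In LEC these were Cdkn1c and Nnat in the earlier step and Meg3, Plagl1 and Nnat in the later one. In BEC they were Dlk1, Meg3 and Nnat in the earlier step and Dlk1, Meg3, Peg3 and Nnat in the later one.

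**Figure D4:**
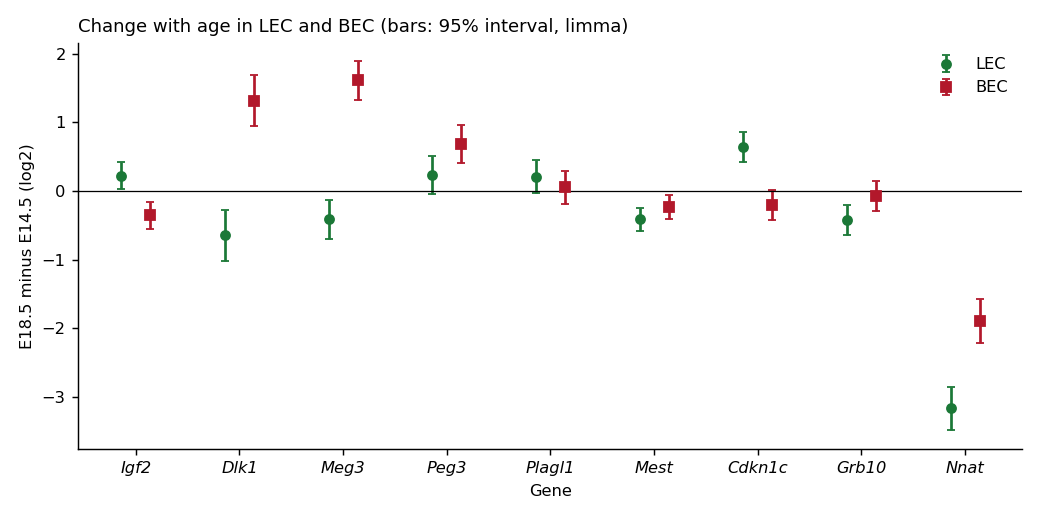
E18.5 minus E14.5 (log2) of each gene in LEC (green circles) and BEC (red squares), with 95% intervals from limma; the line marks no change. Dlk1 and Meg3 lie below 0 in LEC and above 0 in BEC, and Nnat lies lowest in both.

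The difference between the age changes, LEC minus BEC, was tested directly. It was called for 5 of the 9 members, against 8.85% of all genes. Dlk1 differed by -1.96 ± 0.25 (adjusted p = 3.8e-05) and Meg3 by -2.03 ± 0.19 (adjusted p = 1.4e-06). Nnat fell further in LEC, by -1.28 ± 0.21 (adjusted p = 0.00059). Its BEC arrays lay at 5.62 to 5.66 at E16.5 and at 4.91 to 5.49 at E18.5, near the 4.66 bound. The effect of that bound on the difference was not tested. Cdkn1c (0.85 ± 0.14, adjusted p = 0.00067) and Igf2 (0.57 ± 0.13, adjusted p = 0.0082) went the other way. For Peg3 (-0.46 ± 0.19, adjusted p = 0.15), Grb10 (-0.34 ± 0.15, adjusted p = 0.19), Mest (-0.18 ± 0.11, adjusted p = 0.4) and Plagl1 (0.15 ± 0.16, adjusted p = 0.67) the difference was not called, with 95% intervals of -0.85 to -0.07, -0.65 to -0.03, -0.42 to 0.06 and -0.19 to 0.49. Beside these, 9 of 10 mural genes were called with a lower age change in LEC (3.83% of all genes). A higher one was called for 7 of 9 macrophage genes (5.02% of all genes).

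The members can be set beside other imprinted genes, in lists drawn from background knowledge but chosen with earlier results of these data known. Of 17 other paternally expressed genes measured, 3 were higher and 7 lower in LEC over the 3 ages, and of 18 other maternally expressed genes, 1 was higher and 9 lower. Their medians were -0.14 and -0.19, against -1.01 for the members. Of all genes, 18.2% were called higher and 19% lower. In each group, 3 to 4 of the 17 genes and 3 to 6 of the 18 lay below the 4.66 bound on all 3 arrays. All 9 measured members lay above it on every array, and the effect of this on the medians was not tested. The nutrient transporter gene Slc38a4 was higher in LEC by 2.21 ± 0.09 (adjusted p = 2.8e-13), Nap1l5 by 1.00 ± 0.09 (adjusted p = 2.1e-08) and Sfmbt2 by 0.50 ± 0.06 (adjusted p = 1.3e-06). Peg10, derived from a retrotransposon, was lower by 3.43 ± 0.08 (-3.43, adjusted p = 1.2e-16), and the noncoding RNA Airn by 2.21 ± 0.06 (-2.21, adjusted p = 9.1e-16). Among maternally expressed genes, Asb4 was 28.5-fold lower in LEC (-4.83 ± 0.16, adjusted p = 1.1e-14), Igf2r, the receptor that clears IGF2, 3.67-fold lower (-1.88 ± 0.06, adjusted p = 5.3e-15) and Ppp1r9a 2.04-fold lower (-1.03 ± 0.08). The 1 maternally expressed gene that was higher was Tfpi2 (0.37 ± 0.07, adjusted p = 0.00018).

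**Figure D5:**
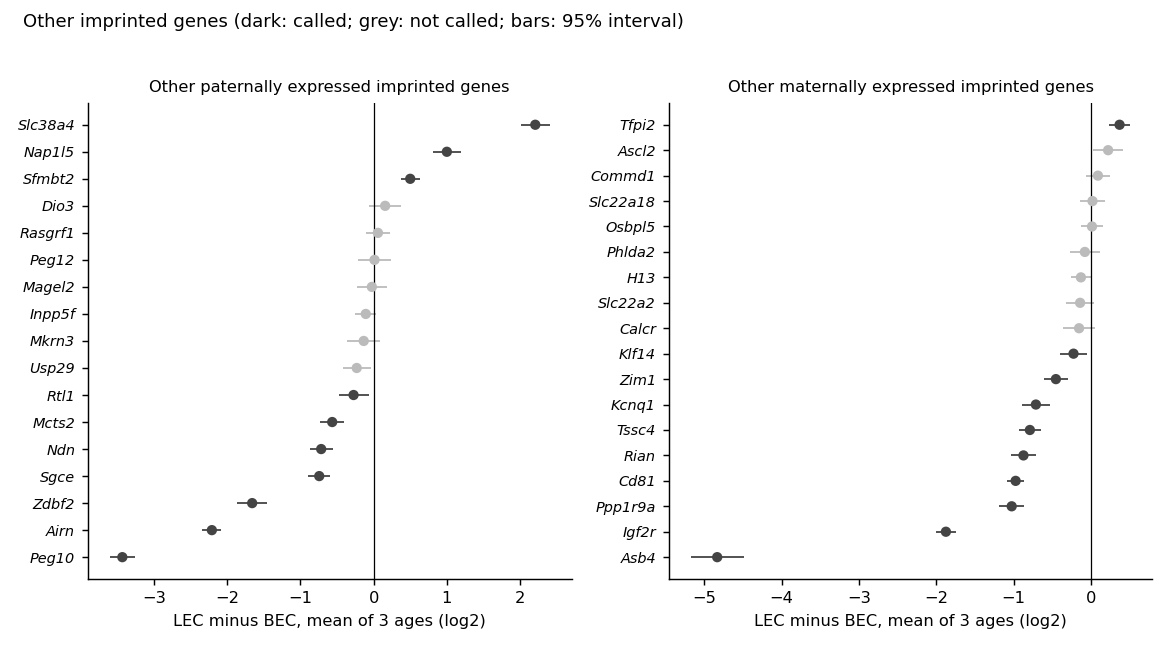
LEC minus BEC over the 3 ages, averaged (log2), for 17 other paternally expressed genes (left panel) and 18 other maternally expressed genes (right panel), with 95% intervals from limma; dark points were called and grey points were not. Slc38a4 lies highest at 2.21 and Asb4 lowest at -4.83.

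With age, 3 of the 17 other paternally expressed genes rose and 3 fell in LEC, and 4 rose and 4 fell in BEC. Of the 18 other maternally expressed genes, 3 rose and 5 fell in LEC, and 4 rose and 2 fell in BEC. Of all genes, 19.7% rose and 21.2% fell in LEC, and 13.3% rose and 17.3% fell in BEC. Nap1l5, like Nnat, fell in both cell types, by 2.11 ± 0.16 in LEC (-2.11, adjusted p = 5.7e-09) and by 1.16 ± 0.16 in BEC (-1.16, adjusted p = 1.3e-05). Peg10, Tssc4 and Commd1 were also called lower with age in both cell types, and Sgce, Mcts2 and Tfpi2 were called higher in both. Rian, a maternally expressed noncoding RNA of the cluster that holds Dlk1 and Meg3, lay below the 4.66 bound on all arrays of LEC and of BEC E14.5 and reached 5.56 to 5.71 in BEC E18.5. It was called higher with age in BEC (adjusted p = 1.7e-08) and not called in LEC (adjusted p = 0.26), and no size is given because the lower levels are below the bound.

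Among 15 measured genes of the IGF2 axis, 3 were higher (18.2% of all genes) and 7 lower (19%) in LEC over the 3 ages. Beside the higher Igf2, the related ligand Igf1 was higher in LEC by 1.49 ± 0.06 (adjusted p = 2.5e-13). All 9 macrophage genes were higher in LEC too (median 2.44), and their part in the Igf1 difference was not tested. The binding proteins Igfbp3 and Igfbp7 were lower by 3.49 ± 0.08 and 2.51 ± 0.08 (-3.49 and -2.51). The signalling receptor gene Igf1r was 1.97-fold lower (-0.98 ± 0.07, adjusted p = 8.3e-10). With age 7 of the 15 rose (19.7% of all genes) and 6 fell (21.2%) in LEC. In BEC 4 rose (13.3% of all genes) and 5 fell (17.3%). Igf2bp1, whose protein binds Igf2 mRNA, fell by 1.69 ± 0.10 in LEC (-1.69, adjusted p = 4.5e-10) and by 2.01 ± 0.10 in BEC (-2.01, adjusted p = 1.3e-10), whereas Igf2 itself was not called in LEC and fell in BEC.

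Of 12 genes for proteins that set, protect, read or erase imprints, CTCF among them, 2 were higher and 5 lower in LEC over the 3 ages, with a median of -0.07. The shares of all genes were 18.2% higher and 19% lower. Zfp57, a zinc finger protein that protects imprints, was lower by 0.72 ± 0.06 (-0.72, adjusted p = 1.1e-08), and the DNA methyltransferase gene Dnmt3a was higher by 0.43 ± 0.07 (adjusted p = 2.9e-05). With age 3 rose (19.7% of all genes) and 5 fell (21.2%) in LEC. In BEC 2 rose (13.3% of all genes) and 5 fell (17.3%). Uhrf1, which brings maintenance methylation to replicated DNA, fell by 1.34 ± 0.12 in LEC (-1.34, adjusted p = 4.4e-08) and by 0.98 ± 0.12 in BEC (-0.98, adjusted p = 3.2e-06).

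Neighbouring genes were read by the order of their starts on GRCm38.p6, which does not tell whether a gene lies inside another. Dlk1 and Meg3 are direct neighbours, and Rtl1, next to Meg3, changed by 0.27 ± 0.17 with age in BEC (adjusted p = 0.25). Peg3 has Zim1 on one side, which lay below the 4.66 bound on all arrays of LEC and of BEC E14.5 and was called higher with age in BEC (adjusted p = 2e-05), reaching 5.29 ± 0.12 at E18.5 (SD, n = 3). Usp29, on the other side, lay below the bound on all 18 arrays. The genes beside Grb10, Ddc and Cobl, were higher in LEC by 2.17 ± 0.10 and 1.20 ± 0.10 (adjusted p = 8.9e-13 and 5.1e-09), where Grb10 was lower. Cep41, beside Mest, was higher in LEC by 0.59 ± 0.08 (adjusted p = 7.3e-06), where Mest was lower. Mir335, the next start after that of Mest, was lower in LEC like Mest (-0.77 ± 0.10, adjusted p = 3e-06). Whether it lies within Mest was not examined, so it is not read as a separate neighbour. Copg2, which follows it, was higher in LEC by 0.23 ± 0.06 (adjusted p = 0.0049). Kcnq1, beside Cdkn1c, was lower in LEC by 0.71 ± 0.09 (-0.71) and rose by 0.79 ± 0.15 with age in LEC (adjusted p = 0.00028). Its rise was called in the later step (0.67 ± 0.15, against 0.12 ± 0.15 in the earlier one), whereas that of Cdkn1c was called in the earlier step.

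Likeness of pattern was described by Pearson's r over the 18 arrays, which fall into 2 cell types and 3 ages, so genes that share a difference between these groups can have a high r. Dlk1 and Meg3 were each other's most similar gene of all tested (r = 0.97). Next to Dlk1 came Scarb1 and the mural gene Abcc9 (0.94 each), and next to Meg3 the mesenchyme gene Prrx1 and the chemokine gene Cxcl12 (0.96 each). Plagl1 was most like Kitl, Igfbp3 and Arhgap18 (0.99 each), and Nnat most like Cpa1, Bri3bp and Nap1l5 (0.98, 0.98 and 0.97). Igf2 was most like Cd82, Pcca and Pard3 (0.96 each), and Cdkn1c was most like Trim47, Bgn and Edn1 (0.92, 0.91 and 0.91). Grb10 was most like Ccnd1, Robo4 and Dysf (0.99 each), Mest like Nr5a2, Flna and Slc7a6 (0.99 each) and Peg3 like Clic4, Lrrk2 and AU021092 (0.99 each).

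Within 1 cell type the 9 arrays still span 3 ages, and r is given as a description only. Dlk1 and Meg3 went together in both, with r of 0.80 in LEC and 0.95 in BEC. Other pairs were as high in 1 cell type. Dlk1 had r of 0.84 with Mest in LEC, but -0.78 in BEC. Peg3 had r of 0.87 with Dlk1 and 0.89 with Meg3 in BEC, but -0.23 and -0.05 in LEC. Igf2 and Nnat, the members higher in LEC, had r of -0.65 in LEC and 0.92 in BEC. Mest and Nnat had r of 0.97 in LEC and 0.72 in BEC. Igf2 and Cdkn1c had r of 0.85 in LEC and 0.78 in BEC.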

How the data were processed

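The deposited values are log2 levels; per the submitters' processing notes the authors used RMA through oligo 1.54.1. Whether the arrays were normalized together is not given in the sources used here. Of 35556 rows, 21789 had 1 gene symbol in the platform annotation, 1621 had several and 12146 were not listed. Taking the brightest row per gene gave 19938 genes, dim ones included. All 18 arrays entered 1 fit of group means in limma 3.58.1 under R 4.3.3 (lmFit, then eBayes without trend; 12 residual and 6.11 prior degrees of freedom), from which 11 comparisons were drawn; the procedure was tested on simulated data. Tests are two-sided, with Benjamini-Hochberg adjustment across all genes of a comparison, and errors are limma standard errors (SE). Alternatives were other scalings, a dim filter, another variance model, array weights, the compared groups only, the mean of a gene's rows, a replicate block, no E18.5 arrays, and 1 array left out in turn. Named list genes are at most the 3 largest called differences each way per list, plus neighbours and, chosen after their values were seen, Igf1r, Rtl1, Prox1, Mmrn1, Cldn5, C1qb and the mural genes given at E14.5. Members and lists were chosen with earlier results of these data known.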

Additional observations from a re-analysis of the deposited data

Results flagged for a closer look

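The change between E14.5 and E18.5 differed between LEC and BEC for 5 of the 9 members, against 8.85% of all genes, by the direct test of that difference (LEC change minus BEC change, log2, limma, Benjamini-Hochberg over all genes). It was -1.96 for Dlk1 (adjusted p = 3.8e-05) and -2.03 for Meg3 (adjusted p = 1.4e-06), which fell in LEC and rose in BEC. It was -1.28 for Nnat (adjusted p = 0.00059), which fell in both and in BEC lay near the 4.66 bound at E18.5 (4.91 to 5.49). It was 0.85 for Cdkn1c (adjusted p = 0.00067), which rose in LEC, and 0.57 for Igf2 (adjusted p = 0.0082), which fell in BEC.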

How the results depend on the processing

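The members gave 99 values over the 11 comparisons, of which 63 were called, 54 of them in every alternative run; the other 9 calls are described beside their results. Of 2574 alternative values, 2484 kept direction and call, 47 lost a call, 27 gained one and 16 changed sign, with 0 of these called in either setting. The sign changes were Plagl1 with age in BEC (-2e-04 with quantile normalization), Igf2 in the later LEC step (0.0083 with a common median, 0.0574 with quantile normalization, 2e-04 with array weights, and -0.0491 to 0.0594 with 1 array left out), and, in the earlier BEC step with a common median, Mest (0.0324), Cdkn1c (0.0331) and Grb10 (0.06, or 0.0022 with array weights). With 1 array left out, Cdkn1c ran over -0.102 to 0.0115 and Grb10 over -0.0459 to 0.0395 in that step, Peg3 over -0.0665 to 0.1837 in the earlier LEC step and Plagl1 over -0.0846 to 0.0256 in the later BEC step.

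The count of members called higher with age in LEC was 2 instead of 1 with quantile normalization, with the dim filter and with the trended robust variance, through Igf2, and ran from 1 to 2 with 1 array left out. Members called in either direction in the earlier LEC step were 4 with that variance and 5 with array weights, against 2. In the later LEC step there were 5 with the dim filter and 6 with that variance, against 3, and 2 to 5 with 1 array left out. In the later BEC step there were 2 to 4 with 1 array left out, against 4. Counts over all genes moved with several settings. With array weights they were 2426 lower in LEC at E14.5 against 1583, 2100 lower at E18.5 against 3163, 4544 in the earlier LEC step against 2749 and 4022 in the earlier BEC step against 1945. With the compared groups only, 1933 genes were higher and 1774 lower in LEC at E18.5, and with quantile normalization 4216 genes were called in the later BEC step against 6433. With 1 array left out, the earlier steps gave 1758 to 3090 genes in LEC and 850 to 2238 in BEC. A common median changed the split of higher and lower calls to 3036 and 5012 over the 3 ages, against 3624 and 3780, and to 1987 and 3602 at E16.5, against 2593 and 2439, where it moved the median of all genes to -0.11. The causes were not tested.

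Same-numbered LEC and BEC arrays deviated together at r of -0.11 to 0.13, with 3 of 9 pairs over 0.1. Of 9 arrays, 4 matched best with their own number. No pairing by number was seen, but these values cannot show whether same-numbered arrays share a litter. The main fit was unpaired. With the replicate block, Meg3 at E14.5 (-0.40, adjusted p = 0.053) and Cdkn1c at E16.5 (-0.30, adjusted p = 0.065) lost their calls, and no other call of a member changed.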
